A study of Mus musculus with 9 samples.

Results

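The peaks described here are stretches of open chromatin that moved one way with one hairpin against Med1 and the other way with the second hairpin, each set against the same control. A peak was taken when its mean over all 9 libraries was at least 50, its group means on the log2(value + 1) scale lay at least 0.2 from the control in opposite directions for the 2 hairpins, and the 3 values of one hairpin did not overlap the 3 values of the other. Of 75936 peaks in the table, 72471 had a mean of at least 50, and 2009 of those (2.77%) met the rule. They fell into 971 peaks that were higher with shMed1 #2 and lower with shMed1 #4, called #2-high here, and 1038 that were higher with shMed1 #4 and lower with shMed1 #2, called #4-high. The size and direction of both differences chose these peaks, so the members were chosen by measured values, and both differences are given as a description with no test.

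The libraries are bulk ATAC-seq of D2A1-d, a mouse breast carcinoma line, from a study of Mediator and metastatic dormancy. All cells were transduced: 3 libraries carried a non-targeting control hairpin (NTC, genotype labelled WT), 3 carried shMed1 #2 and 3 carried shMed1 #4 (both with the genotype Med1 Knockdown), and all 9 are labelled Untreated and were grown in the same medium with 10% serum. Each arm is thus 1 hairpin in 1 cell line, and the labels call its libraries biological replicates without saying whether the cells were transduced separately, so the spread between libraries may be in part technical. In ATAC-seq a transposase inserts adapters into accessible DNA, and the number of reads in a peak follows how open that site is. In bulk samples, fewer cells with an open site and a less open site in each cell cannot be told apart.

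Mediator is the large coactivator that carries signals from transcription factors at enhancers and promoters to RNA polymerase II. MED1 is the subunit through which nuclear receptors and several other factors contact the complex, and it is known for its part at hormone-driven enhancers in breast cells. A hairpin reaches a gene only through its messenger RNA, and 2 hairpins against the same gene are used side by side because each can also touch other transcripts. ATAC-seq does not measure the amount of Med1 RNA or protein, so the knockdown itself was not checked here.

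The deposited values are DESeq2-normalized counts, and size factors and reads were worked out from the step between values in each library. So derived, reads in peaks ran from 34.8 to 53.7 M per library and size factors from 0.799 to 1.22. The lowest value above 0 stood for 2 or 3 reads, so no single read checked the step. Over all peaks the log2 values of libraries correlated at r = 0.988 to 0.991 within a group and 0.970 to 0.982 between groups. Neither of the 2 peaks assigned to Med1 was opposed: the means in NTC, #2 and #4 were 2114, 2023 and 1971 at the gene end and 144, 166 and 150 in the gene body. Of 10 epithelial marker genes 1 had a peak at a gene end (Krt18), against 8 of 10 mesenchymal, 6 of 10 blood and 1 of 9 endothelial and fat markers. Epcam and Cdh1 had no gene-end peak, the gene-end peak of Vim averaged 4576 in NTC, and Ptprc, which defines blood cells, had none. No gene-end peak of these markers was opposed. The summed values of a library ran from 178 to 239 in NTC, 111 to 127 with #2 and 154 to 184 with #4 for the epithelial list, which is Krt18 alone. The mesenchymal sums ran from 17922 to 18943, 18546 to 18789 and 19422 to 19785, the blood sums from 3043 to 3131, 3023 to 3038 and 2972 to 3193, and the endothelial and fat sums from 101 to 128, 93.6 to 135 and 96.3 to 115. The part of such cells in the opposed peaks was not tested.

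No genome sequence was used, so the letters of most opposed peaks are not shown. The RefSeq promoter windows of GRCm38.p6 run from 250 bases before to 50 bases after a start site. They overlapped 52 of the #4-high peaks and 7 of the #2-high peaks, and gave the sequences read here. A window is called under a peak when it overlaps it by any amount, so its letters can lie mostly outside the peak. The Sdcbp2 window, for example, starts where its peak ends (chr2:151572373). Shown here, chosen after the values were seen, are the 3 windows with the largest difference between hairpins in each direction. The window of Rbms3, the gene with most #4-high peaks, is added. All run 5′ to 3′ on the strand of the gene, and capitals mark each CG dinucleotide, the site of DNA methylation that is dense in the promoters of widely used genes.
The #4-high windows belong to Sash1 (a signalling scaffold), Grb14 (an adaptor that restrains the insulin receptor), Cep126 (a centrosome protein) and Rbms3 (an RNA-binding protein).
Sash1, chr10:8886021-8886320, minus strand: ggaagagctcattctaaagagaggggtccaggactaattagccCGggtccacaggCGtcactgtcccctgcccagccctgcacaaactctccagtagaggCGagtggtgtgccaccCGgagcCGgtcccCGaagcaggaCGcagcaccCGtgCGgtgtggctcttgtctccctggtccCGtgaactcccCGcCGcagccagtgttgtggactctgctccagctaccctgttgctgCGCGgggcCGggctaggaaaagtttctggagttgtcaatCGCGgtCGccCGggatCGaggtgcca
Grb14, chr2:65022717-65023016, minus strand: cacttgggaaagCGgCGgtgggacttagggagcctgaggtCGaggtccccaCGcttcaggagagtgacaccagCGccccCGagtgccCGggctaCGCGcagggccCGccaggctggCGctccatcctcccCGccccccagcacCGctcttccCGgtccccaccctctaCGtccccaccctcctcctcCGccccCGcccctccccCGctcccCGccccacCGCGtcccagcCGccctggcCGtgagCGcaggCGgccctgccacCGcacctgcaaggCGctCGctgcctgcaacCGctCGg
Cep126, chr9:8134397-8134696, minus strand: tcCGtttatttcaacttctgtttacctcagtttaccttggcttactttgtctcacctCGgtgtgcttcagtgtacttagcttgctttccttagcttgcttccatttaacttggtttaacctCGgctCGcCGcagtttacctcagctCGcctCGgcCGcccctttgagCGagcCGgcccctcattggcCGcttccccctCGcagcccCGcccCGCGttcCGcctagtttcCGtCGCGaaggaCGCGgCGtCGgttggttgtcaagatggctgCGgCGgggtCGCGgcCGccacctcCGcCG
Rbms3, chr9:117252434-117252733, minus strand: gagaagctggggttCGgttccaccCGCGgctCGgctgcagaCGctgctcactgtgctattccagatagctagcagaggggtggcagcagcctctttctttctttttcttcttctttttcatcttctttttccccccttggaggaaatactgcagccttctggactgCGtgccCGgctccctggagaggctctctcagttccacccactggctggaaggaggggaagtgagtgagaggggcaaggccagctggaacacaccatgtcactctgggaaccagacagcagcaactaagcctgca
The #2-high windows belong to Cep170 (a centrosome protein), Spaca7 (a sperm acrosome protein) and Bcl2l1 (which encodes the survival factor BCL-XL).
Cep170, chr1:176807075-176807374, minus strand: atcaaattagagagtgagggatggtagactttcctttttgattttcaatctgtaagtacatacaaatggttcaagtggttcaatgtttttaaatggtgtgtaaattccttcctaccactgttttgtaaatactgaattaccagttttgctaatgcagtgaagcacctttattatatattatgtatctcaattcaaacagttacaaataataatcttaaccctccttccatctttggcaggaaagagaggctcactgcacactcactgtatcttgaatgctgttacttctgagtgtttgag
Spaca7, chr8:12572786-12573085, plus strand: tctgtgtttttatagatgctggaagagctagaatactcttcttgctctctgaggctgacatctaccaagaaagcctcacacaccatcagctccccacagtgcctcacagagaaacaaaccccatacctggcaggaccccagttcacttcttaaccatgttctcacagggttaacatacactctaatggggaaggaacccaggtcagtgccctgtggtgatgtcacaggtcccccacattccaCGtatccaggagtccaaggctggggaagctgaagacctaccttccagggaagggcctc
Bcl2l1, chr2:152828440-152828739, minus strand: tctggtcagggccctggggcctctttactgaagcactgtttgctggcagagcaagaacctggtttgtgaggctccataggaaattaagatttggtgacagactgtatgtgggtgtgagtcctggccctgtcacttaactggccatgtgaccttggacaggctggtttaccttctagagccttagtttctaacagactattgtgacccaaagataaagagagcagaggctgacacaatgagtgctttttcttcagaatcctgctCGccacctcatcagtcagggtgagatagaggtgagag

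The windows printed for the #4-high peaks at Sash1, Grb14 and Cep126 held 20, 30 and 30 CG dinucleotides, and the Rbms3 window held 7. The windows printed for the #2-high peaks held 0, 1 and 1. The peaks at Sash1, Rbms3, Cep170 and Bcl2l1 lay inside the gene, over 1 kb from its ends. Their windows are thus at start sites inside the gene and do not describe a promoter at its end. Over all 62 windows (53 genes) under #4-high peaks, the median ratio of observed to expected CG was 0.56, beside 0.55 for windows under peaks with a mean of 50 to 500 and 0.82 under stronger peaks. The 8 windows (7 genes) under #2-high peaks had a median of 0.29, and the highest of them, both at Pld6, were 0.63 and 0.70. The #4-high windows lay close to other promoters under weak peaks, and 8 windows are few for the #2-high ones.

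Of 15 motifs searched on both strands, the GC box (GGGCGG, read by SP and KLF factors) was in 40 of the 62 #4-high windows (64.5%), beside 48.9% of windows under peaks with a mean of 50 to 500 and 46.2% of all 21262 windows. The same 2 shares stand beside each count that follows. The NFY letters CCAAT were in 27 (43.5%), beside 33.5% and 38.2%. The TEAD letters GGAATG were in 13 (21.0%), beside 14.6% and 13.6%, and the AP-1 letters TGANTCA in 8 (12.9%), beside 11.5% and 6.99%. The cyclic AMP element TGACGTCA was in 5 (8.06%), beside 3.04% and 2.23%, the E-box CACGTG in 9 (14.5%), beside 8.61% and 7.84%, and the NRF1 motif in 5 (8.06%), beside 4.73% and 6.38%. The ETS letters CCGGAAG were in 7 (11.3%), beside 8.78% and 11.6%, the heat shock letters GAANNTTC in 3 (4.84%), beside 5.74% and 7.21%, and the YY1 letters AAGATGGC in 1 (1.61%), beside 1.86% and 3.05%. The RUNX letters TGTGGT were in 7 (11.3%), beside 15.4% of the windows under peaks with a mean of 50 to 500. No window of either direction held the NF-kappaB motif, the CTCF core, the SMAD letters GTCTAGAC or the nuclear receptor direct repeat, which 0.423%, 1.01%, 0.226% and 0.0470% of all windows held. A window can hold several motifs. Matches are a description of letters in these windows and show no binding.

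The 2 directions were of similar size and, by the rule, of opposite sign. For the #2-high peaks the median level by library was 145, 142 and 137 in NTC, 188, 183 and 186 with #2, and 114, 111 and 118 with #4. For the #4-high peaks it was 98.5, 95.9 and 95.9 in NTC, 66.8, 71.4 and 75.5 with #2, and 125, 127 and 126 with #4. At these medians the 3 libraries of a group did not overlap those of another group. The rule chose the peaks by these same values, so this separation describes the choice only.

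**Figure D1:**
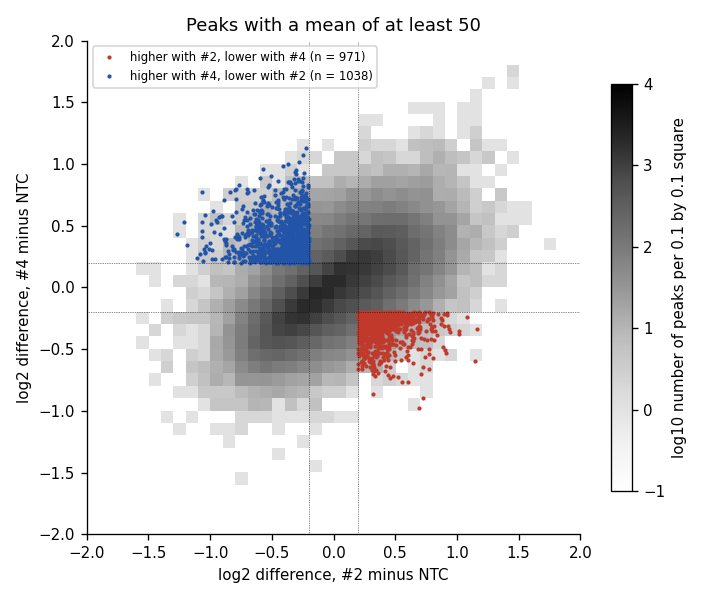
Each peak with a mean of at least 50, by its log2 difference of #2 from NTC (horizontal) and of #4 from NTC (vertical). Grey squares count all 72471 peaks, coloured points are the 971 #2-high and 1038 #4-high peaks, and dotted lines mark differences of 0.2; both axes share the NTC libraries, so the slope of the grey cloud is not a result.

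On the log2 scale the #2-high peaks had a median difference from NTC of 0.35 with #2 and -0.29 with #4, and the median gap between hairpins was 0.68 (range 0.42 to 1.74). The #4-high peaks had medians of -0.36 with #2 and 0.37 with #4, with a median gap of -0.78 and an extreme of -1.84. A gap of at least 1, a 2-fold difference between hairpins, was reached by 98 #2-high peaks (10.1%) and 242 #4-high peaks (23.3%), and by 456 (0.629%) of all peaks with a mean of at least 50. The hairpins' values do not overlap, in these directions, in 18.5% and 15.8% of all peaks with that mean. All 3 groups were free of overlap, with NTC between the hairpins, in 428 #2-high peaks (44.1%) and 436 #4-high peaks (42.0%), beside 1.07% and 0.977% of all peaks with that mean.

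By limma on all peaks (adjusted p under 0.05), 548 #2-high peaks were called higher with #2 than NTC, beside 23.6% of all peaks, and 365 lower with #4, beside 12.1%. Of the #4-high peaks, 487 were called lower with #2, beside 19.5%, and 424 higher with #4, beside 17.3%. Both calls were met by 267 #2-high peaks, beside 0.412% of all peaks, and by 251 #4-high peaks, beside 0.345%. Between hairpins, 931 #2-high peaks were called lower with #4, beside 13.0%, and 975 #4-high peaks higher, beside 8.48%. The rule used these contrasts, so the counts describe the choice only: most members stand apart between hairpins, and 27.5% and 24.2% pass against NTC both ways. Scaling the libraries to equal totals turned the split over all peaks from 17928 higher and 14781 lower to 13498 and 22132 for #2, and from 13150 and 9152 to 9329 and 14938 for #4. That scaling moved the median of all peaks to -0.10 for #2 and -0.08 for #4, and 676 of the #2-high and 772 of the #4-high peaks still met the rule.

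The values at the thresholds were small. Just inside, a #4-high peak in Mogat1 averaged 96.8 ± 17.5, 77.6 ± 15.9 and 111 ± 12.2 in NTC, #2 and #4 (mean ± SD, n = 3), and a #2-high peak near Clec3a averaged 157 ± 24.6, 227 ± 34.8 and 136 ± 18.8. Just outside, a peak near Rnf144b held 106, 144 and 114 in NTC, 126, 153 and 157 with #2, and 102, 92.6 and 120 with #4, and its difference of #4 from NTC just missed the limit.

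In a check chosen after the data were seen, 1 library of each group was left out, peaks were chosen by the same rule from the other 6, and only the 3 libraries left out were then read. There are 27 such choices, and they gave 1092 to 1343 #2-high and 940 to 1414 #4-high peaks. Only 596 to 719 and 649 to 808 of these were among the members chosen from all 9 libraries. The shares below therefore describe the sets chosen from 6 libraries, and the share with both differences on the chosen side was not counted. In the #2-high peaks, the #2 library left out lay above the NTC library left out in 77.9% to 88.6%, and the #4 library below it in 63.6% to 78.2%. In the #4-high peaks, #2 lay below NTC in 70.8% to 89.1% and #4 above it in 75.4% to 82.3%. Over all peaks with a mean of at least 50, each of these shares was between 48.9% and 51.1%. The 2 hairpin libraries left out stood in the chosen order in 82.6% to 94.1% of the #2-high and 87.3% to 93.7% of the #4-high peaks, beside 49.0% to 51.0% of all. Both differences from NTC read the same NTC library, and the 27 choices share libraries, so these are ranges and carry no test.

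The differences were mostly smaller in the libraries left out than in those used, and the loss was greatest for #4 in the #2-high peaks. There the median difference of #4 from NTC was 0.10 to 0.24 on the log2 scale in the chosen direction, against 0.30 to 0.31 in the libraries used. For #2 in the same peaks it was 0.28 to 0.42, against 0.34 to 0.35. In the #4-high peaks it was 0.19 to 0.45 for #2, against 0.35 to 0.38, and 0.23 to 0.36 for #4, against 0.33 to 0.36.

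**Figure D2:**
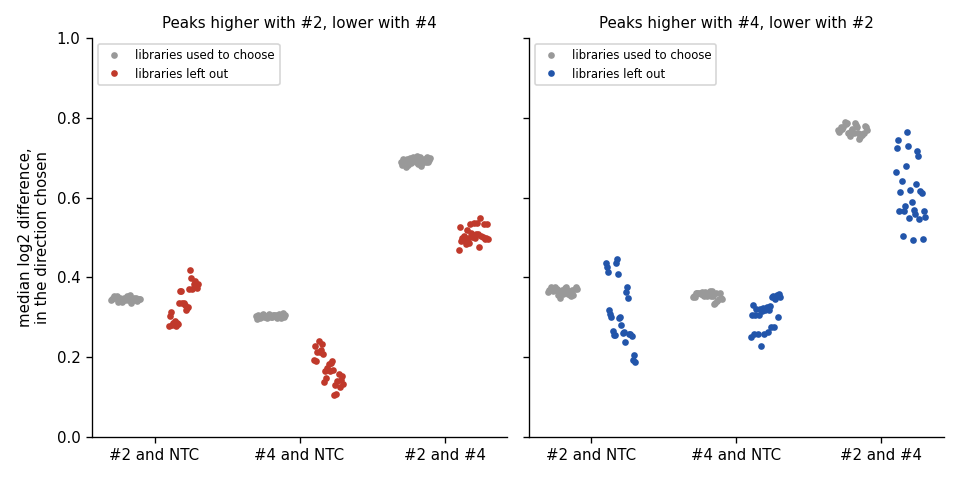
Median log2 difference, in the direction chosen, between #2 and NTC, #4 and NTC, and #2 and #4, for peaks chosen without 1 library of each group. Each point is 1 of 27 choices, grey for the 6 libraries used and coloured for the 3 left out; all coloured points lie above 0, and the lowest, 0.10, is for #4 in #2-high peaks.

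Opposed peaks were weaker by the median than all peaks, and the #4-high ones more so. The median of the mean over 9 libraries was 148 for #2-high and 97.6 for #4-high peaks, beside 224 for all peaks with a mean of at least 50. Means under 100 were found in 31.6% of #2-high, 51.4% of #4-high and 24.3% of all such peaks. Means of at least 500 were found in 69 #2-high peaks (7.11%), 19 #4-high peaks (1.83%) and 32.1% of all. Below 500 the #2-high share varied little: 1.74% of peaks at 50 to 100, 1.87% at 100 to 200 and 1.89% at 200 to 500. The #4-high share fell over the same ranges, from 3.03% to 1.94% and 1.10%. Weak peaks rest on fewer reads, so their values carry a larger counting error.

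**Figure D3:**
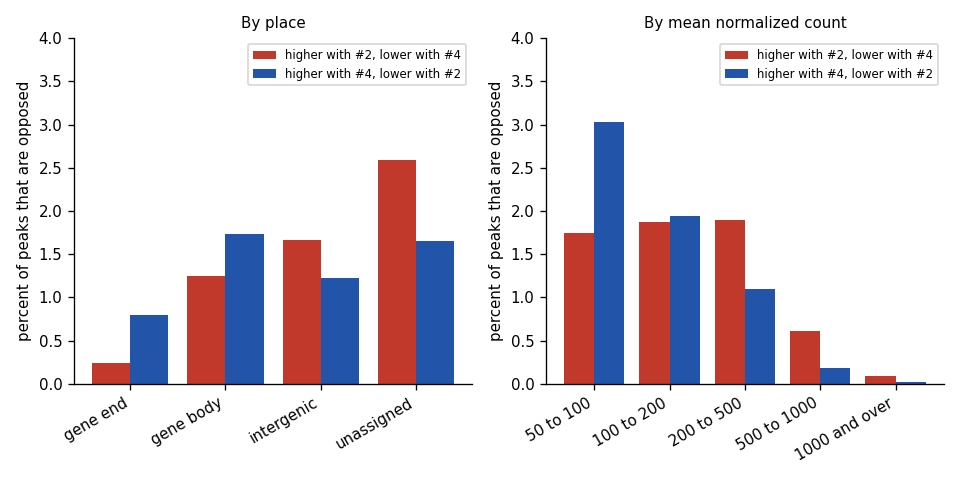
Percent of peaks with a mean of at least 50 that were #2-high (red) or #4-high (blue), by place relative to protein-coding genes (left) and by mean normalized count over 9 libraries (right). Over all strengths, gene-end peaks and peaks with a mean of 1000 and over hold the smallest shares, and the 2 directions change order between gene bodies and intergenic peaks.

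Over all strengths, gene-end peaks were a smaller share of the opposed peaks than of all peaks, and the 2 directions differed in their shares of each place. A gene-end peak here has its centre at most 1 kb from the start or the end of a protein-coding gene, an intergenic peak lies outside genes with an end within 50 kb, and an unassigned peak has none that near. Gene-end peaks made up 28 #2-high (2.88%) and 95 #4-high peaks (9.15%), beside 16.5% of all peaks with a mean of at least 50. Gene-body peaks made up 414 (42.6%) and 575 (55.4%), beside 45.7%. Intergenic peaks made up 328 (33.8%) and 240 (23.1%), beside 27.1%, and unassigned peaks 201 (20.7%) and 128 (12.3%), beside 10.7%. The median distance to a start site was 44.9 kb for #2-high, 39.1 kb for #4-high and 25.9 kb for all such peaks.

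Among peaks of like strength the pattern held in part. Gene-end peaks were #2-high least often in each range, 0.692% of those with a mean of 50 to 100, 0.822% at 100 to 200 and 0.625% at 200 to 500, beside 1.47% to 3.44% in the other places. They were not #4-high least often: 3.29%, 3.60% and 1.18% of them were, beside 3.12%, 2.26% and 1.29% of gene-body peaks. Intergenic peaks were more often #2-high than #4-high at 100 to 200 (1.89% and 1.24%) and at 200 to 500 (2.35% and 0.797%), and unassigned peaks likewise (3.02% and 1.58%, then 3.44% and 1.07%). At 50 to 100 the order turned, with 1.88% and 2.67% of intergenic and 2.94% and 3.35% of unassigned peaks. Over all strengths, promoter windows were overlapped by 7 #2-high (0.721%) and 52 #4-high peaks (5.01%). The share was 10.8% of all peaks with a mean of at least 50, and it was not counted within ranges of strength. Neighbouring peaks are not independent, so these shares are given without a test.

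The share of peaks that were opposed also varied by chromosome. For #2-high peaks it was highest on chromosomes 14 (2.17%), 13 (2.16%), 12 (1.99%) and 2 (1.96%) and lowest on X (0.705%) and 7 (0.810%). For #4-high peaks it was highest on chromosome 6 (2.25%) and lowest on chromosome 14 (1.02%). Copy number was not measured, so its part in these shares was not tested.

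Opposed peaks had neighbours that leaned the same way. For each member the nearest other peak over 1 kb and at most 20 kb away was read, and its own values had no part in choosing the member. Of 782 such nearest peaks of #2-high peaks, 256 (32.7%) were called lower with #4 than #2, beside 13.0% of all peaks tested. Another 23 (2.94%) were called the other way, and 52 of the 782 were #2-high themselves. Of 868 nearest peaks of #4-high peaks, 193 (22.2%) were called higher with #4 than #2, beside 8.48% of all. Another 51 (5.88%) were called the other way, and 39 of the 868 were #4-high themselves. The rule chose those 52 and 39 by the same difference, so both shares called are in part set by the rule. The share called without them was not counted. Nearest peaks that were not opposed themselves had a median difference between hairpins of 0.12 beside #2-high and -0.09 beside #4-high peaks, against -0.01 over all peaks tested.

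The lean was smaller at larger distances. At 1 to 5 kb from the nearest #2-high peak, the median difference of #2 from #4 was 0.18 over 470 peaks, with 72.1% on the same side. It was 0.06 at 10 to 20 kb and 0.02 at 50 to 100 kb, where 53.6% were on that side. Of the peaks read, 9.57% at 1 to 5 kb and 1.58% at 50 to 100 kb were #2-high themselves. Around #4-high peaks the median was -0.16 over 528 peaks at 1 to 5 kb, with 71.4% on the same side, and -0.04 at 10 to 20 kb. Of those 528 peaks, 5.68% were #4-high themselves. Consecutive opposed peaks up to 5 kb apart had the same direction in 53 of 54 pairs. Those 20 to 100 kb apart did so in 175 of 233 (75.1%), and those over 500 kb apart in 548 of 1032 (53.1%). The closest pairs include peaks under 1 kb apart, as in Fgfr1 and Rbms3. Their count thus cannot tell neighbouring sites from parts of 1 site, and the rule chose both peaks of every pair.

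**Figure D4:**
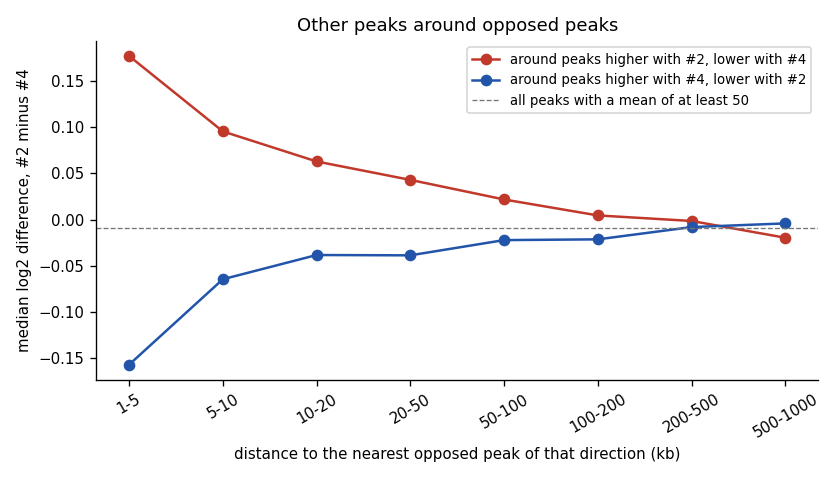
Median log2 difference of #2 from #4 among other peaks, by their distance in kb from the nearest #2-high peak (red) or #4-high peak (blue). Other opposed peaks are included. The dashed line is the median of all peaks with a mean of at least 50, and both curves approach it from 0.18 and -0.16 at 1 to 5 kb.

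The genes below are the nearest by place and are not tested targets. In all, 1432 genes of 15588 with such a peak had at least 1 opposed peak, 688 a #2-high peak, 795 a #4-high peak and 51 both. At least 3 peaks were #2-high in 8 genes and #4-high in 18. Rbms3 had the most #4-high peaks, 6 of its 7. Of these, 3 lay within 3 kb of each other, 1 of them over an annotated start site.

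The Rbms3 peak with the largest gap, chr9:117251696-117252197 (mm10, in the gene body), held 107, 103 and 110 in NTC, 39.5, 49.5 and 69.0 with #2, and 162, 175 and 147 with #4. The peak over the promoter window printed above, chr9:117252238-117252739, held 81.5, 98.6 and 73.7 in NTC, 42.2, 51.8 and 56.7 with #2, and 127, 144 and 124 with #4. The most distant, chr9:116590981-116591482, held 131, 161 and 102, then 94.9, 101 and 103, then 275, 285 and 224. In the first 2 the 3 groups did not overlap, and in the third the NTC values reached down to those of #2. The seventh peak, chr9:117571059-117571560, was not opposed: it held 62.7, 58.1 and 39.4 in NTC, 59.7, 38.0 and 46.8 with #2, and 77.8, 87.6 and 76.8 with #4. Its log2 difference of #2 from #4 was -0.75 (SE 0.23), and #4 against #2 was called by limma with a Benjamini-Hochberg adjusted p of 0.0123 over all peaks.

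Other genes with several #4-high peaks differed in how far the rest of the gene followed. Trabd2b, which encodes a membrane protease that trims Wnt ligands, had 5 of 12, and the one with the largest gap held 131, 116 and 113 in NTC, 39.5, 68.0 and 62.4 with #2 and 141, 139 and 145 with #4. Prkd1 (protein kinase D) had 4 of 10. Foxp1, a forkhead repressor, had 5 of 41 and 1 more peak that was #2-high, and Sorcs2, a sorting receptor, had 4 of 40. Over the peaks of these 4 genes that were not opposed, the median difference of #2 from #4 was between -0.06 and -0.01. In Pappa2, Epb41l4a and Paqr8, 3 genes chosen after their values were seen, all 14 peaks that were not opposed were higher with #4 than #2, with medians of -0.62, -0.26 and -0.29, and 6 of the 14 were called, beside 8.48% of all peaks called higher with #4 than #2. In Atxn1 and Plekhh2, which also had 3 #4-high peaks each, the other peaks lay the other way, with 22 of 34 and 5 of 8 higher with #2 and medians of 0.07 and 0.16. Of those in Atxn1, 9 were called higher with #2, beside 13.0% of all peaks. Of those in Plekhh2, 1 was called higher with #4, beside 8.48%.

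The 8 genes with 3 #2-high peaks also differed in the rest of the gene. Rbm39, which encodes a splicing factor, had 3 of 10, and of the other 7 peaks 5 were called higher with #2 than #4, with a median difference of 0.52. Myo16, an unconventional myosin, had 3 of 30, and 15 of the other 27 were called the same way, with a median of 0.21. Over all peaks, 13.0% were called higher with #2 than #4. The median of the peaks that were not opposed was 0.04 in Mast4 (a kinase; 22 of 31 higher with #2), 0.04 in Zfand3 (15 of 25) and 0.03 in Gabbr2 (a GABA-B receptor subunit; 6 of 11). It was -0.08 in Frmd4b (a scaffold protein; 5 of 15), -0.08 in Rhoj (a small GTPase; 0 of 6) and -0.24 in Zbtb8b (0 of 1). In the strongest Frmd4b peak, chr6:97294362-97294863, the values were 273, 320 and 292 in NTC, 517, 485 and 470 with #2, and 198, 213 and 253 with #4. None of the 3 groups overlapped there.

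**Figure D5:**
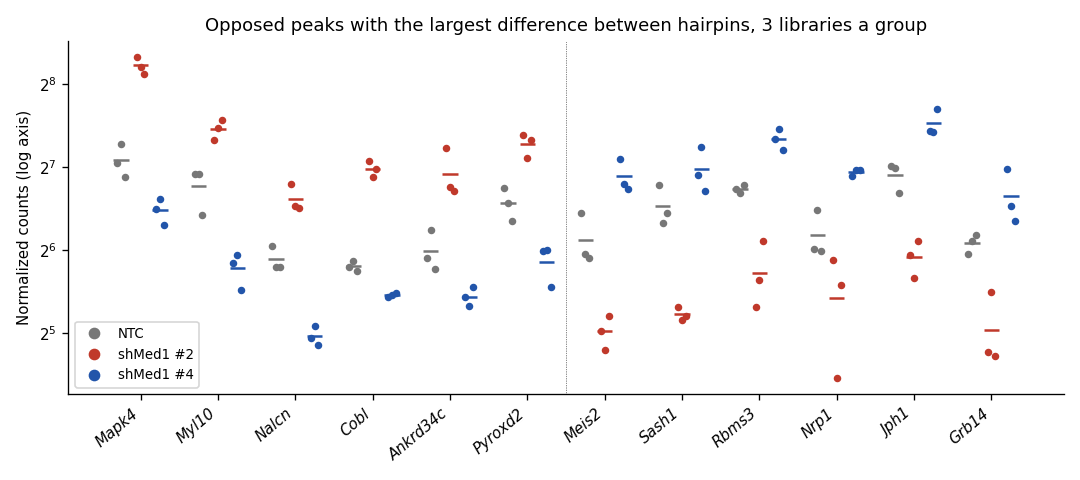
Normalized counts on a log axis in each library (points) with the group mean (bars) at the 6 #2-high (left) and 6 #4-high peaks (right) with the largest difference between hairpins, 1 per gene. NTC means (grey) lie between those of #2 (red) and #4 (blue) at all 12, as the rule requires on the log2 scale. At Mapk4 the #2 values of 279 to 322 are above all others.

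The #2-high peak with the largest gap lay in Mapk4, an atypical MAP kinase gene. It held 133, 155 and 118 in NTC, 322, 296 and 279 with #2, and 90.1, 97.6 and 79.0 with #4. The gap of 1.74 on the log2 scale is a 3.34-fold difference between hairpins, and no values of the 3 groups overlapped. Near Myl10 (a myosin light chain) the values were 121, 121 and 85.8, then 160, 177 and 189, then 57.4, 61.3 and 45.6. In Nalcn (the sodium leak channel) they were 66.3, 55.3 and 55.5, then 111, 92.1 and 91.1, then 30.7, 33.8 and 28.9. In Cobl, an actin nucleator, #2 moved most: 55.5, 58.1 and 53.5 in NTC, 134, 117 and 126 with #2, and 43.0, 43.8 and 44.5 with #4. The 3 groups were free of overlap at all 4 of these sites. That held at 31 of the 36 peaks named for the largest gaps, beside 1.07% and 0.977% of all peaks with a mean of at least 50. The peaks were chosen by these same values, so the separation describes the choice only.

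Stronger #2-high peaks also stood among the first 15. The gene-end peak of Cpne2, a calcium-dependent membrane-binding copine, held 595, 581 and 498 in NTC, 1180, 1130 and 1228 with #2, and 483, 465 and 462 with #4. Near Spo11, the meiotic strand-break enzyme, the means were 238 ± 20.1, 447 ± 16.9 and 168 ± 9.69 in NTC, #2 and #4, and near Lin7c (a polarity scaffold) 169 ± 32.6, 309.9 ± 22.9 and 119 ± 6.82 (SD, n = 3). The rest of the 15 were at Ankrd34c, Pyroxd2, Upp2, Pdia5, Crtac1, Myo18b, Rhoj and Erc2, with gaps of 1.31 to 1.44. The 3 unassigned peaks named, on chromosomes 9, 4 and 8, had gaps of 1.43, 1.39 and 1.37.

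The largest gap of all was a #4-high peak at a gene end of Meis2, a TALE homeobox factor, both of whose peaks were #4-high. It held 86.8, 61.8 and 59.6 in NTC, 32.5, 27.6 and 36.9 with #2, and 136, 111 and 107 with #4. The gap of -1.84 on the log2 scale is a 3.57-fold difference between hairpins, and no values overlapped. The single peak of Sash1, over the window inside the gene printed above, held 110, 80.2 and 86.8, then 39.5, 35.7 and 36.9, then 120, 151 and 105. Its #4 values overlapped those of NTC. The strongest of the first 15 lay in Acot7, an acyl-CoA thioesterase gene: 449, 358 and 385 in NTC, 221, 274 and 291 with #2, and 695, 757 and 750 with #4.

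Receptors and signalling genes were among the other #4-high peaks with large gaps. In Nrp1, a co-receptor for VEGF and semaphorins, the values were 64.5, 89.4 and 63.6 in NTC, 58.9, 21.9 and 47.6 with #2, and 119, 125 and 125 with #4. In Stim1, the calcium sensor of the endoplasmic reticulum, the means were 71.6 ± 30.3, 39.1 ± 6.79 and 119 ± 8.09 in NTC, #2 and #4 (SD, n = 3). Near Apln, the ligand apelin, they were 61.5 ± 5.89, 37.6 ± 4.66 and 107 ± 5.11, and in Znrf3, a ubiquitin ligase that removes Wnt receptors, 75.9 ± 1.63, 35.8 ± 3.62 and 102 ± 19.0. The others were at Jph1, Grb14, Syn3, Zfp536, Pitpnm2, Ccbe1 and Cep126, with gaps of -1.49 to -1.60.

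Of 21 gene lists, 19 held at least 1 opposed peak. Peaks of the lists were #2-high in 0% to 3.41% and #4-high in 0% to 2.70%, beside 1.34% and 1.43% of all peaks with a mean of at least 50. The 137 peaks of Mediator genes held 1 opposed peak, in Med23: 305, 286 and 300 in NTC, 184, 245 and 260 with #2, and 343, 390 and 362 with #4. The 47 peaks of interferon response genes and the 27 of blood markers held none. Nuclear receptor genes, whose proteins bind MED1, held 2 of each direction among 237 peaks (0.844% each way), at Rora, Rarb, Rxra and near Ppara.

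Of 322 peaks of actin cytoskeleton genes, 7 (2.17%) were #4-high and 1 (0.311%) was #2-high, and of 361 of extracellular matrix genes, 7 (1.94%) and 2 (0.554%), beside 1.43% and 1.34% of all peaks with a mean of at least 50. The integrin and focal adhesion genes held 5 of each among 466 (1.07% each way). In Myh9 (non-muscle myosin) the values were 356, 364 and 350 in NTC, 176, 206 and 239 with #2, and 520, 510 and 614 with #4. The gene-end peak of Acta2 (smooth muscle actin) held 155, 138 and 158, then 73.8, 78.3 and 70.6, then 207, 161 and 195. In Cald1 (caldesmon, which binds actin) the means in NTC, #2 and #4 were 154 ± 12.7, 74.2 ± 8.57 and 186 ± 13.4 (SD, n = 3), and in Mmp2 (a matrix metalloproteinase) 179.5 ± 24.0, 121 ± 28.9 and 272 ± 17.1. Near Actr3, a subunit of the ARP2/3 complex, the single #2-high peak of the actin list held 172, 147 and 172, then 286, 267 and 250, then 120, 128 and 120. At Myh9, Acta2 and Actr3 the 3 groups did not overlap, which describes peaks chosen by these same values.

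Signalling lists held both directions. Of 222 peaks of receptor tyrosine kinase and MAP kinase feedback genes, 4 were #2-high, among them peaks in Egfr and Igf1r, and 6 were #4-high, 3 of them in Fgfr1. Of the adjacent pair in Fgfr1, the stronger held 77.0, 68.2 and 56.5 in NTC, 36.0, 51.8 and 46.0 with #2 and 125, 106 and 105 with #4, with no overlap between groups. Of 282 Wnt and Notch peaks, 5 were #2-high (near Wnt7a, in Axin1) and 6 #4-high, such as Tcf7l2, the transcription factor of the pathway, with means of 165 ± 26.2, 119 ± 23.9 and 284 ± 18.7 in NTC, #2 and #4 (SD, n = 3). Of 210 TGF-beta and BMP peaks, 5 were #2-high, near Id4 and Id2 among others, and 2 were #4-high, in Tgfbr3 (a co-receptor) and near Smad6 (an inhibitor).

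Inflammatory genes held 4 #2-high and 3 #4-high peaks of 127. Near Il1a, the cytokine interleukin 1 alpha, the values were 368, 359 and 313 in NTC, 607, 546 and 539 with #2, and 259, 269 and 295 with #4. In Csf1, the macrophage growth factor, they were 635, 659 and 516, then 386, 442 and 427, then 747, 787 and 791. Neither shows an overlap between groups, and both were chosen by these same values.

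Genes linked to cell identity held peaks of both directions. In Cdh2 (N-cadherin), 2 of 7 peaks were #2-high, and one held 367, 355 and 297 in NTC, 528, 398 and 480 with #2, and 237, 198 and 215 with #4. In Pdgfrb, another mesenchymal gene, the peak was #4-high with means of 142 ± 7.99, 108 ± 9.22 and 217 ± 17.1 in NTC, #2 and #4 (SD, n = 3). Near Trp63, the basal epithelial regulator, the values were 116, 122 and 125, then 211, 233 and 235, then 70.7, 121 and 108. Near Epcam, an epithelial surface protein with no gene-end peak here, they were 85.9, 65.4 and 77.7, then 39.5, 49.5 and 32.0, then 108, 101 and 100. The groups did not overlap at Epcam and at this Cdh2 peak, while at Trp63 the #4 values reached those of NTC.

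Single genes could hold both directions. Near Klf10, a TGF-beta-induced zinc finger gene, 1 of 10 peaks was #2-high, at 500, 547 and 546 in NTC, 646, 605 and 651 with #2, and 432, 467 and 434 with #4. Another, over 50 kb away, was #4-high, at 56.4, 43.3 and 69.6, then 33.4, 57.6 and 44.3, then 71.7, 77.6 and 80.1. In Tln2 (talin, which links integrins to actin) 1 of 24 peaks was #2-high and 1 was #4-high. Such genes were 51 of the 1432.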

How the data were processed

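The values analysed are the authors' deposited signal per peak in the 9 libraries, named by them as DESeq2-normalized counts, that is, reads per peak divided by a size factor per library. Per the submitters' processing notes, Trim Galore, BWA, MACS2 and featureCounts from Subread were used with mm10 (GRCm38), with versions, duplicate removal and any transposase offset not given in the sources used here. Peaks were 501 bases long, and coordinates are as deposited. Log2 of the value plus 1 was fitted in the 75930 peaks whose mean was 10 or more, with limma 3.58.1 (R 4.3.3, trend, 3 group means, Benjamini-Hochberg over all peaks, threshold 0.05), after the fit was tested on simulated data. Count models were not run, since no peak held a single read to check the size factors.

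Peaks were placed by RefSeq genes of GRCm38.p6 without strand, and promoter windows from the same build carried strand and held none of chromosome 18. The 562 genes of 21 lists all matched. The members, gene lists, markers and the naming rule were chosen with earlier results of these data known. The rule named, each way, the 15 peaks with the largest gap between hairpins (1 per gene) and 3 unassigned ones, the 5 genes with most opposed peaks, up to 2 peaks per list, all peaks of Med1 and the 4 nearest inside and outside the thresholds. The correlation of peak values between libraries is across peaks, which are not independent. Alternatives were pseudocounts, scalings, filters, thresholds, a replicate block, array weights and leaving out each library, and, chosen after the data were seen, leaving out 1 library of each group.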

Additional observations from a re-analysis of the deposited data

How the results depend on the processing

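The number of #2-high peaks was 971 and ran from 878 to 1165 when 1 library was left out. The number of #4-high peaks was 1038 and ran from 936 to 1226. The members changed more than the counts. Of the 971 peaks 700 to 892 were kept, and of the 1038 peaks 781 to 961, in both with the fewest without NTC replicate 1. Leaving out a hairpin library also loosens the condition on overlap. A log2 difference of at least 0.3 each way left 280 and 451 peaks, and a mean of at least 100 left 504 of the #4-high peaks and 664 of the #2-high ones; both are stricter by construction. Pseudocounts of 0.5 and 5, equal totals, quantile normalization, no filter on the mean and no condition on overlap kept both counts within 1.5 times. Quantile normalization kept 717 and 781 of the peaks. Calls over all peaks ran from 25761 to 33236 for #2 against NTC (32709 with all libraries), 15773 to 23961 for #4 (22302) and 12701 to 16215 for #4 against #2 (16336). Nearest peaks called in the member's direction, opposed ones included, ran from 204 to 275 for #2-high peaks (24.9% to 33.5%). For #4-high peaks they ran from 144 to 210 (15.4% to 22.3%). The same calls over all peaks tested ran from 10.9% to 13.0% and from 5.84% to 8.37%. Same-numbered libraries did not deviate together (r -0.084 to 0.033), so the numbers pair nothing. With a replicate block the calls were 31867, 21286 and 15393. The nearest peaks called were then 248 (31.7%, beside 12.5% of all) and 179 (20.6%, beside 7.77%). For the peaks named, #4 against #2 kept its direction at every setting run, and of the values of single peaks at single settings 2161 kept their side of the threshold, 43 lost the call and 4 gained it, the 43 coming from 18 of 138 peaks. Precision is limited by depth at weak peaks, by 3 libraries a group and by 1 hairpin an arm.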
